A study of Mus musculus with 45 samples.

Results

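The comparison described here set CD4+ T cells outside the TFH gate from S1PR4-/- mice against the same cells from WT mice. Its members were the 6 S1PR4-/- and 6 WT libraries labelled non-Tfh, 12 of the 45 libraries of the series, which also covers TFH cells and B cells from inside and outside germinal centers (GC B, non-GC B). All mice were 8 to 12 weeks old and carried the strain label B6.129P2-S1pr4tm1Dgen/J, a germline deletion line backcrossed to C57/BL6, and the WT mice were littermates of the S1PR4-/- mice. Every mouse of both genotypes received 20 µl of an incomplete Freund's adjuvant emulsion with 50 µg ovalbumin and 5 µg lipopolysaccharide in the hind footpad. On day 6 the draining popliteal lymph node (dLN) was taken, and non-TFH cells were sorted as TCRβ+ CD4+ PD1- CXCR5- cells. That gate leaves a mixture of naive, recently activated and regulatory CD4+ T cells. Because the deletion is present in every cell of the mouse, an effect of the receptor in the T cells themselves and an effect of other cells lacking it cannot be told apart. Sequence near S1pr4 that is inherited with the deleted allele also goes with genotype. Its effect, for example on neighbouring genes, cannot be told apart from loss of the receptor either and was not tested. The study's methods give 6 sorted mice of each genotype, but the labels tie no library to a mouse, so p-values measure the spread between these libraries.

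S1PR4 is a G protein-coupled receptor for sphingosine-1-phosphate (S1P), a lipid abundant in blood and lymph and kept low in lymphoid tissue. Lymphocytes use S1PR1 to follow S1P out of lymph nodes, and CD69, an early activation marker, takes S1PR1 off the cell surface. S1PR4 is found mainly on hematopoietic cells and couples to Gi and G12/13 proteins, and its part in CD4+ T cells is less well described than that of S1PR1.

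The deleted gene was checked first. S1pr4 (chr10:81497747-81500132, minus strand, mm10) had 4352 to 6305 counts in the WT libraries and 18 to 32 counts in the S1PR4-/- libraries. In CPM, the unit used from here on (counts scaled by TMM to a common library size), this was 153 ± 18.4 (SD, n = 6) for WT libraries against 0.82 ± 0.20 (SD, n = 6) without the receptor, a log2 fold change of -7.56 (SE 0.15, adjusted p = 3.67e-14, edgeR). Library totals ran from 30902269 to 37364766 counts in WT and from 29487657 to 40118294 counts in S1PR4-/- cells, so depth was similar in both genotypes. Cd4, Cd3e, Trac and Lck, which define the labelled cell type, were abundant in all 12 libraries, and Cd4 ran from 674 to 877.4 CPM in WT and from 720.5 to 818.3 CPM in S1PR4-/- cells. Of the 12 CD4 T cell markers listed, 9 had a negative log2 fold change, with a median of -0.07.

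The genotypes differed in the sex of the mice, which the labels do not give. Counts of the Y-linked gene Ddx3y put 5 female mice and 1 male mouse (replicate 3) in the WT group, and 2 female mice (replicates 4 and 5) and 4 male mice in the S1PR4-/- group. Values with sex as a factor in the model are therefore given beside many of the results, though not for every gene, and that setting was chosen after seeing the data. Sex itself passed an adjusted p of 0.05 for 5 genes when it shared the model with genotype, which does not test Y-linked genes because too few libraries held them.

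B cell transcripts also moved with genotype. In bulk libraries, fewer cells of a type and less RNA per cell cannot be told apart. Over the 12 B cell markers, the summed level was 14.8 to 56.0 CPM in WT (median 28.9) and 12.0 to 23.5 CPM in S1PR4-/- libraries (median 17.4), against 9741 to 11560 CPM in WT for the 12 CD4 T cell markers. All 6 of the B cell markers that could be tested were lower in S1PR4-/- cells, 4 of them with an unadjusted p under 0.05, with a median log2 fold change of -1.52 (-1.04 with sex as a factor). The WT replicates 4, 5 and 6 had the highest summed levels, at 35.2, 51.0 and 56.0 CPM. Of the 8 myeloid markers tested, all had negative values and 2, the MHC class II genes H2-Aa and H2-Ab1, which B cells also make, were lower at an unadjusted p under 0.05. The dendritic cell marker Clec9a and the neutrophil markers Camp and Elane were at 0 in every library.

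Few genes passed the edgeR test. Of 13197 genes tested with edgeR's quasi-likelihood test, 31 (0.235%) had an adjusted p under 0.05, 10 of them higher (0.0758%) and 21 lower (0.159%) in S1PR4-/- cells. A change of more than 1.5-fold was found for 15 of these, 6 higher (0.0455%) and 9 lower (0.0682%). An unadjusted p under 0.05 was reached by 1486 genes (11.3%), 669 higher (5.07%) and 817 lower (6.19%). A positive log2 fold change was found for 51.2% of all genes, and the 6 values of one genotype lay wholly above or below the other 6 for 52 higher (0.394%) and 97 lower genes (0.735%). Among the 11553 genes with a mean of at least 1 CPM in either genotype, the median standard error of a log2 fold change was 0.104, and 355 genes were past 1.5-fold, of which 15 passed the test.

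**Figure D1:**
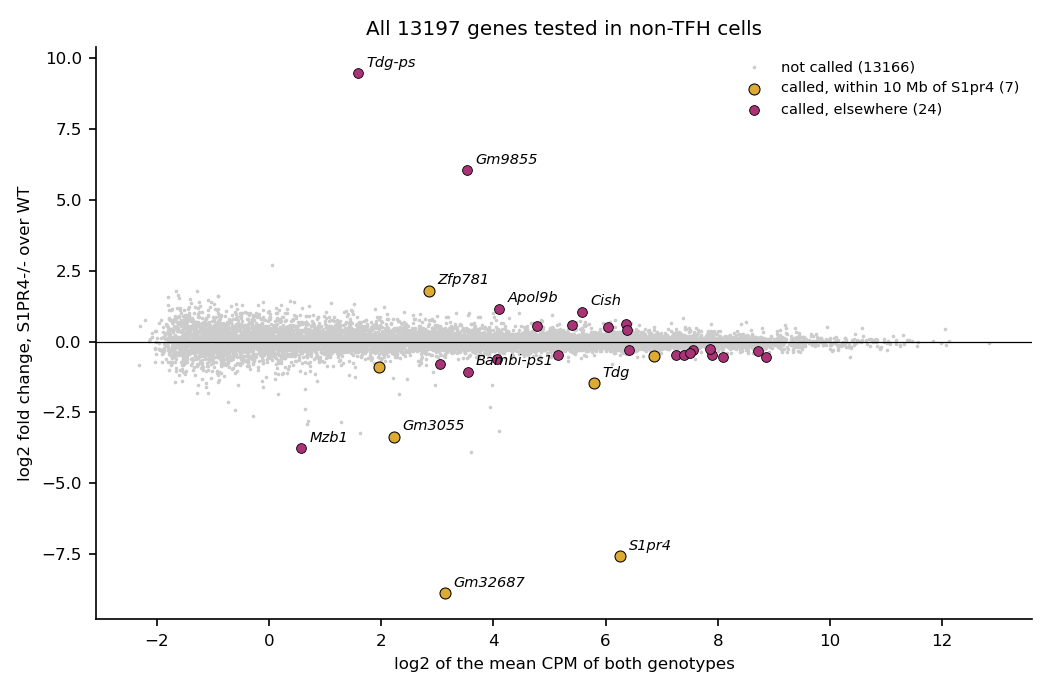
Log2 fold change (S1PR4-/- over WT) against the log2 of mean CPM for each of the 13197 genes tested in non-TFH cells, 6 libraries per genotype. Orange points are the 7 called genes within 10 Mb of S1pr4, purple points the 24 called genes elsewhere, and grey points the genes with an adjusted p of 0.05 or more; the named points are the called genes past 2-fold.

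With sex as a factor, 9 genes (0.0682%) had an adjusted p under 0.05 and 840 an unadjusted p under 0.05 (6.37%; 2.6% higher and 3.77% lower). In the 7 female libraries alone, 5 WT and 2 S1PR4-/-, 6 genes passed. With a B cell marker score as covariate 10 passed, and without WT replicate 6, the library richest in B cell transcripts, 51 did, while 18 passed without S1PR4-/- replicate 6. These counts are from edgeR. With DESeq2, the test named in the study's methods, 253 of 13197 genes had an adjusted p under 0.05, and 56 of them were past 1.5-fold. A simulation of this comparison with 200 changed genes among 12916, drawn from the WT means, recovered 75% of genes changed 1.5-fold and 88% of those changed 2-fold without the sex factor, and 65% and 82% with it. The changed genes were taken from those above 1 CPM. Each gene was drawn independently, with no sex or B cell differences between libraries, so recovery in the real libraries may differ.

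Of the 31 called genes 7, S1pr4 included, lay within 10 Mb of S1pr4 on chromosome 10. Of the 69 genes tested under 1 Mb away, 26.1% had an unadjusted p under 0.05, and so did 12.9% of the 140 genes at 1 to 10 Mb, 11.8% of the 422 genes farther along chromosome 10 and 11.1% of the 12565 genes on other chromosomes. Ncln, whose product nicalin is an endoplasmic reticulum protein and whose gene is next to S1pr4, was at 114.5, 136.2 and 153 CPM (lowest, median and highest library) in WT and at 88.95, 96.87 and 101.8 CPM in S1PR4-/- cells. The groups did not overlap, and the log2 fold change of Ncln was -0.51 (SE 0.07, adjusted p = 0.00385, edgeR; -0.55 with sex as a factor, adjusted p = 0.0124). Gna15, which lies 0.00217 Mb from S1pr4 and encodes a G protein alpha subunit of blood cells, had a log2 fold change of -0.83 that did not pass (SE 0.32, adjusted p = 0.342; -1.28 with sex as a factor, adjusted p = 0.537), with overlapping groups. Gna15 was called in the other populations, at -1.68 in TFH (adjusted p = 0.00335), -4.10 in non-GC B (adjusted p = 0.0140) and -1.35 in GC B cells (adjusted p = 0.0277).

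Tdg, which encodes a DNA glycosylase that removes thymine from G:T mismatches, lies 1.13 Mb from S1pr4 at chr10:82629828-82650799. It was at 71.0 to 99.0 CPM in WT and 28.1 to 32.7 CPM in S1PR4-/- cells, a log2 fold change of -1.47 (SE 0.08, adjusted p = 3.784e-08). The processed pseudogenes Gm9855 (chr10:42054113-42055306, 39.4 Mb from S1pr4) and Tdg-ps (chr15:82516311-82519278) had the opposite pattern. Gm9855 was at 0.158 to 0.550 CPM in WT and 21.7 to 24.1 CPM in S1PR4-/- cells. Tdg-ps was at 0 CPM in all WT libraries but replicate 5, at 0.0287 CPM, and at 5.44 to 6.62 CPM in S1PR4-/- cells. Of the 31-base words of Gm9855 and Tdg-ps transcripts, 83.4% and 69.2% also occur in Tdg, so the split of reads among these loci is uncertain. The sum of the 3 genes was 82.1 ± 9.85 CPM (SD, n = 6) for WT libraries against 58.4 ± 1.95 (SD, n = 6) without the receptor. All 3 genes had the same direction in TFH cells and both B cell populations, with log2 fold changes of Gm9855 between 5.92 and 6.33.

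To show how alike the loci are, the first 120 bases of the Tdg coding sequence in the reference annotation (GENCODE M21, GRCm38, chr10:82638750-82638869) are printed with their counterparts in the pseudogenes, where capitals mark bases that differ from Tdg. Gm9855 shares 119 of the 120 bases (chr10:42055187-42055306, minus strand) and Tdg-ps 117 (chr15:82516484-82516603).
Tdg: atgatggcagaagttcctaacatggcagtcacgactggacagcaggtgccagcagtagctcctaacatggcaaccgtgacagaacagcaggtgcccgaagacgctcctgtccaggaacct
Gm9855: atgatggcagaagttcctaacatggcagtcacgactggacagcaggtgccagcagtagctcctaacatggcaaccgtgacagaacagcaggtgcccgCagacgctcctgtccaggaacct
Tdg-ps: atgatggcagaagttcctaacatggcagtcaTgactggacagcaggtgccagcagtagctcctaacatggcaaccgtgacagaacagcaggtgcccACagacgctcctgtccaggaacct

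The zinc finger genes near S1pr4 also have close copies. Of the 31-base words of Zfp781, 97.0% occur in Gm3055, and 93.8% of those of Gm3055 occur in Zfp781. For Gm32687, 96.0% occur in another gene, Zfp433. Gm32687 (0.364 Mb away) was at 14.3 to 24.7 CPM in WT and at 0 in 5 of the 6 S1PR4-/- libraries, with 0.221 CPM in replicate 2. Gm3055 (0.243 Mb) fell from 6.54 to 13.7 CPM in WT to 0.608 to 1.13 CPM in S1PR4-/- cells, with a log2 fold change of -3.36 (SE 0.23, adjusted p = 6.104e-07). Zfp781 (0.402 Mb) rose from 1.53 to 4.35 CPM to 10.1 to 11.9 CPM, with a log2 fold change of 1.80 (SE 0.20, adjusted p = 0.000348). Between 96.0% and 97.7% of the 31-base words of each occur in another annotated gene, so these values are uncertain too. The remaining neighbour, 1190007I07Rik (1.12 Mb), had a log2 fold change of -0.90 (SE 0.16, adjusted p = 0.0203; 0.315 with sex as a factor).

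The other 24 called genes lay farther away or on other chromosomes. Without the 2 Tdg pseudogenes 22 were left, 7 higher and 15 lower, and the genotypes did not overlap for 20 of them. Picking genes by a small p in the same libraries favours groups that do not overlap. The 7 higher genes were Nfkbid, Nfkbiz, Relb, Lta, Cish, Spsb1 and Apol9b. The first 3 are in a list of 30 nuclear factor kappa B (NF-kB) subunits, inhibitors and activating kinases. Over all genes 0.0758% were called higher, but that list was chosen with earlier results of these data known. All 22 kept their direction and an unadjusted p under 0.05 with sex as a factor, but 1 of them, Pde4b, then had an adjusted p under 0.05. Leaving out each of the 12 libraries in turn, 9 of the 22 kept an adjusted p under 0.05 every time, namely Apol9b, Bambi-ps1, Car2, Pde4b, Usp28, Acss1, Rnf145, Dglucy and Selenop, and the highest adjusted p of the others was 0.128.

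NF-kB factors are held inactive by IkB proteins and switch on cytokine, survival and feedback genes after receptor triggering. Nfkbid encodes IkBNS, a nuclear IkB protein that acts with NF-kB on its target genes (chr7:30421732-30428746). In WT libraries it was at 56.3 CPM at the lowest, 61.5 at the median and 84.6 at the highest, and in S1PR4-/- libraries at 83.6, 100.2 and 115.7 CPM. The highest WT library, replicate 6, overlapped the lowest S1PR4-/- library, replicate 2. The log2 fold change of Nfkbid was 0.62 (SE 0.10, adjusted p = 0.0160; 0.62 with sex as a factor, adjusted p = 0.118).

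Nfkbiz encodes IkB zeta, another nuclear IkB protein, which is made in response to activation (chr16:55811375-55838899). It was at 25.8, 35.4 and 40.4 CPM in WT and at 46.9, 50.3 and 55.5 CPM in S1PR4-/- cells (lowest, median and highest), with no overlap. Its log2 fold change was 0.57 (SE 0.09, adjusted p = 0.0160; 0.61 with sex as a factor, adjusted p = 0.0722). Relb, the NF-kB subunit of the noncanonical pathway (chr7:19606217-19629438), was at 63.9, 70.4 and 81.8 CPM in WT and at 87.1, 96.2 and 104.7 CPM in S1PR4-/- cells. Every S1PR4-/- library was above every WT library, with a log2 fold change of 0.42 (SE 0.07, adjusted p = 0.0160; 0.39 with sex as a factor, adjusted p = 0.181).

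Lta encodes lymphotoxin alpha, a TNF family cytokine made by activated lymphocytes (chr17:35203165-35205351). It was at 18.3, 23.2 and 24.3 CPM in WT and at 27.7, 30.97 and 41.6 CPM in S1PR4-/- cells, without overlap, a log2 fold change of 0.55 (SE 0.10, adjusted p = 0.0381). Tnf, the gene next to it on chromosome 17, was just outside the threshold at a log2 fold change of 0.66 (SE 0.13, adjusted p = 0.0506), and its highest WT library overlapped its lowest S1PR4-/- library. Cish encodes a SOCS family protein that restrains cytokine receptors and is switched on by STAT5 (chr9:107296026-107302784). It was at 14.9, 34.0 and 41.2 CPM in WT and at 55.3, 60.5 and 80.0 CPM in S1PR4-/- cells, a 2.08-fold difference without overlap (log2 1.06, SE 0.20, adjusted p = 0.0381; 1.02 with sex as a factor, adjusted p = 0.299). The lowest value, in WT replicate 4, came from the library in which Il2ra, Il2rb and Foxp3 were also lowest.

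Spsb1, an adaptor of a ubiquitin ligase, was at 47.9 to 68.4 CPM in WT and 67.7 to 87.5 CPM in S1PR4-/- cells, with a log2 fold change of 0.53 (SE 0.10, adjusted p = 0.0262). Of the WT libraries of Spsb1, replicate 6 alone overlapped the S1PR4-/- libraries. Apol9b, an interferon-inducible apolipoprotein L gene, was at 8.26, 9.88 and 13.8 CPM in WT and 16.8, 23.2 and 32.6 CPM in S1PR4-/- cells, a log2 fold change of 1.16 (SE 0.18, adjusted p = 0.0105). Its neighbour Apol9a, which holds 64.9% of the 31-base words of Apol9b, stood just outside the threshold at 0.96 (SE 0.19, adjusted p = 0.0506), so the 2 genes may not be independent measurements. Next in order of p among the higher genes away from S1pr4 came Ms4a4c at 0.48 (adjusted p = 0.0560), Mthfd1l, a mitochondrial folate enzyme, at 0.36 (adjusted p = 0.0635), Gpd2, a mitochondrial glycerol phosphate dehydrogenase, at 0.43 (adjusted p = 0.0659), and Irf1, an interferon-induced transcription factor, at 0.47 (adjusted p = 0.0670).

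**Figure D2:**
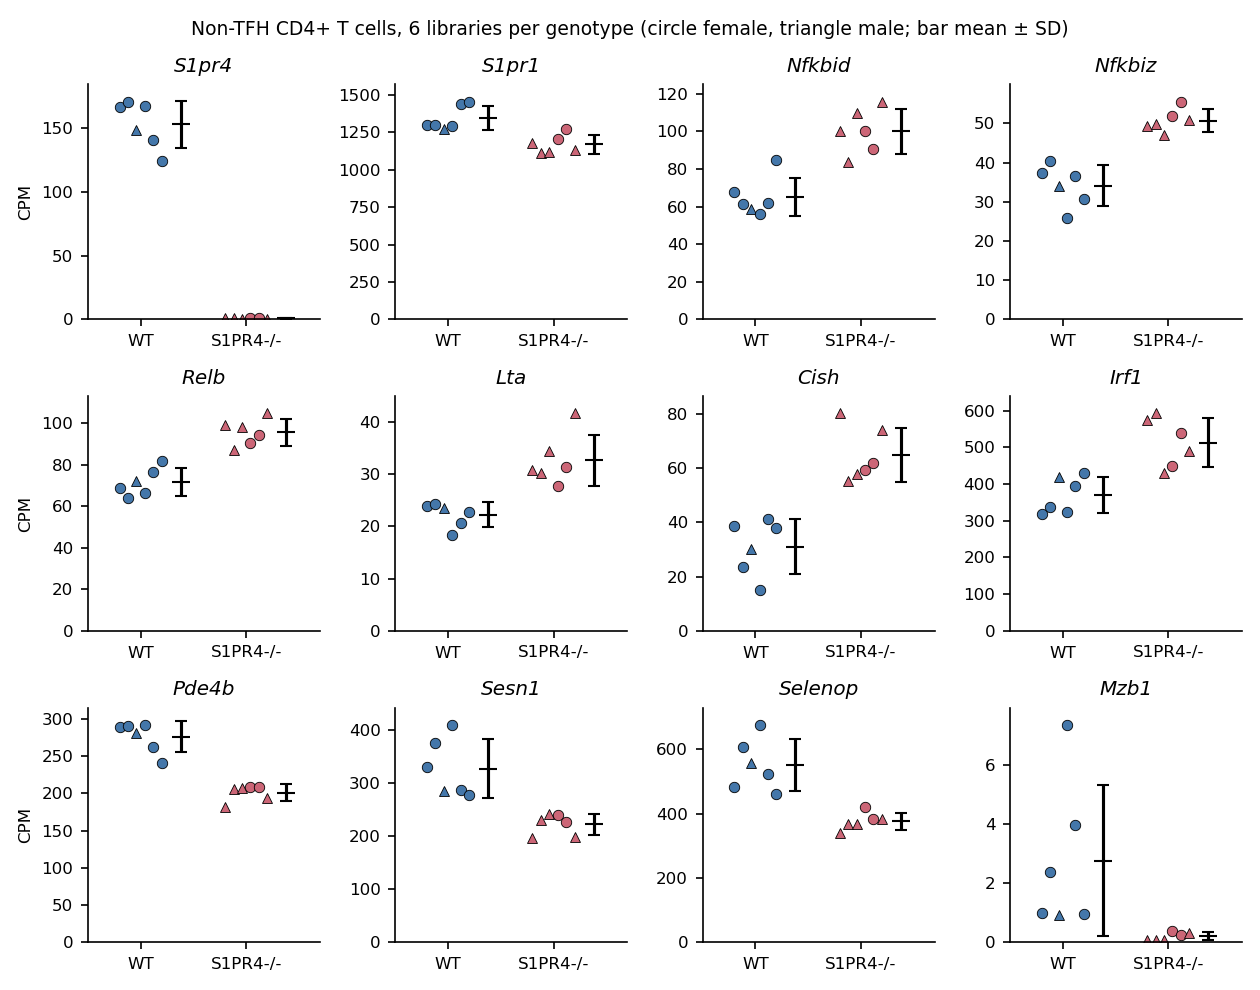
CPM of 12 genes in each non-TFH library, with WT in blue and S1PR4-/- in red, circles for female and triangles for male mice, and a bar for the mean ± SD of 6 libraries; each axis starts at 0. Nfkbiz, Relb, Lta, Cish and Irf1 are higher and Pde4b, Sesn1, Selenop and S1pr1 lower in all S1PR4-/- libraries, while the WT values of Mzb1 spread from 0.916 to 7.34 CPM.

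Promoter sequences were available from RefSeq (GRCm38.p6, 250 bases before to 50 after each start) for 34 of the genes described. Relb and Nfkbiz were not among these genes. The promoters were searched on both strands for 5 motifs. For NF-kB, 2 fixed spellings were searched, and sites with other letters were not counted. The first was 3 G, any 2 letters, 3 T and 2 C. It was in 0 of the 34 and in 2.06% of the 9431 tested genes with a promoter. The second, called palindromic, can overlap the first and was in 1 of the 34 (Rnf145) and in 1.75% of tested genes. These counts do not show that the promoters lack NF-kB sites. The AP-1 motif TGANTCA was in 2 (Apol9a and Apol9b; 5.8% of tested genes) and the cyclic AMP response motif TGACGTCA in 3 (Nfkbid, S1pr2 and Tdg; 3.69%). TTCNNNGAA, the spaced palindrome that STAT proteins bind, was searched after seeing the data and was in 7 of the 34 (8.34% of tested genes), Cish, Irf1, Lta, Nfkbid, Pde4b, Ncln and Tdg. The promoters of 3 of the higher genes and of Irf1 are printed to show where these letters stand, with the motif matches in capitals. In Cish the matches begin 0 and 11 bases after the start, in Lta 152 and 16 bases before it, in Irf1 90 bases before it, and in the first of the 3 Nfkbid promoters 167 bases before it. A match is only a run of letters, and binding was not measured.
Cish, chr9:107296409-107296708, plus strand: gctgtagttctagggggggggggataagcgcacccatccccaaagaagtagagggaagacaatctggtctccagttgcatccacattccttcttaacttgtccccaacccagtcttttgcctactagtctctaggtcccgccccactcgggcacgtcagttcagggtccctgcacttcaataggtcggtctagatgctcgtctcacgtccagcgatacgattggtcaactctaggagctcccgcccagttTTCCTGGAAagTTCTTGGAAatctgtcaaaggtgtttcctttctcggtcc
Lta, chr17:35205302-35205601, minus strand: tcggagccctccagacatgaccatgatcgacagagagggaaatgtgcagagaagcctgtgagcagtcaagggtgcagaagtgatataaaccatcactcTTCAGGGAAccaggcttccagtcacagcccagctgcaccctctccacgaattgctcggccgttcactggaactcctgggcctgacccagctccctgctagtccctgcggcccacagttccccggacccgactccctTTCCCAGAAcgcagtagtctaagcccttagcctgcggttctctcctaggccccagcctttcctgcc
Nfkbid, chr7:30421481-30421780, plus strand: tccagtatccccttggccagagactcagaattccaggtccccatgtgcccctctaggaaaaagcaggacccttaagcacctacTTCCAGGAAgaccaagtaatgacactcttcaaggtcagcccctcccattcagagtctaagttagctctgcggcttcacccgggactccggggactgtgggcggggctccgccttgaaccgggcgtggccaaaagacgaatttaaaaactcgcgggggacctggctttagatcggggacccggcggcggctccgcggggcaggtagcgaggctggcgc
Irf1, chr11:53769764-53770063, plus strand: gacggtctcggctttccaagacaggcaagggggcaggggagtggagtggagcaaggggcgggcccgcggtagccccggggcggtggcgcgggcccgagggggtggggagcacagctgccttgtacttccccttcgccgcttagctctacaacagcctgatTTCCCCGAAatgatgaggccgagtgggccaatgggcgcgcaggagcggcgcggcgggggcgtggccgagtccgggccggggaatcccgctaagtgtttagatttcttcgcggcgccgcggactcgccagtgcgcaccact

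The 15 lower genes away from S1pr4 did not overlap between genotypes in any case, against 0.735% of all genes that were lower without overlap. They were picked by a small p in the same libraries, so the lack of overlap is not separate support. Pde4b, a phosphodiesterase that breaks down cyclic AMP (chr4:102087543-102607259), was at 240.1, 285.2 and 291.7 CPM in WT and at 181.4, 206.6 and 208.4 CPM in S1PR4-/- cells. Its log2 fold change was -0.46 (SE 0.06, adjusted p = 0.00312; -0.44 with sex as a factor, adjusted p = 0.0414). Usp28, a deubiquitinase, was at 166.2 to 190 CPM in WT and 107.2 to 141.7 CPM in S1PR4-/- cells, with a log2 fold change of -0.47 (SE 0.07, adjusted p = 0.00441). Rnf145, an endoplasmic reticulum ubiquitin ligase, had a log2 fold change of -0.34 (SE 0.05, adjusted p = 0.00874).

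Genes that restrain growth or are high in resting cells were among the lower ones, a grouping made after the values were seen. Sesn1, a sestrin that holds back mTORC1 (chr10:41809935-41908424, 39.6 Mb from S1pr4), was at 278, 307.4 and 408.9 CPM in WT and at 196.8, 228.4 and 240.5 CPM in S1PR4-/- cells, a log2 fold change of -0.56 (SE 0.10, adjusted p = 0.0259). Ccng2, an atypical cyclin of resting cells, fell by 0.40 (SE 0.08, adjusted p = 0.0416), and Tnfaip8l2, an inhibitor of immune activation, fell by 0.27 (SE 0.05, adjusted p = 0.0416). Ezh1, a histone H3 lysine methyltransferase of Polycomb complexes, fell by 0.29 (SE 0.05, adjusted p = 0.0223), and Calcoco1, an autophagy receptor, fell by 0.31 (SE 0.05, adjusted p = 0.0160). Tob1, an antiproliferative mRNA decay factor, had a log2 fold change of -0.67 that stood just outside the threshold (SE 0.13, adjusted p = 0.0508), as did its relative Btg2 at -0.41 (SE 0.09, adjusted p = 0.0851).

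Several lower genes have metabolic roles, again a grouping made after the values were seen. Selenop, which encodes the selenium carrier selenoprotein P (chr15:3268547-3280508), was at 461, 540.5 and 675.6 CPM in WT and at 340.7, 375.4 and 420.4 CPM in S1PR4-/- cells, with a log2 fold change of -0.55 (SE 0.09, adjusted p = 0.0105). Acss1, the mitochondrial acetyl-CoA synthetase, fell by 0.46 (SE 0.07, adjusted p = 0.00837), Dglucy, a mitochondrial D-glutamate cyclase, by 0.47 (SE 0.07, adjusted p = 0.0105), and Car2, a carbonic anhydrase, by 0.79 (SE 0.12, adjusted p = 0.00874). The pseudogene Bambi-ps1 fell by 1.06 (SE 0.16, adjusted p = 0.00874) and the antisense gene Gm30054 by 0.61 (SE 0.12, adjusted p = 0.0459).

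Mzb1, a chaperone of plasma cells and marginal zone B cells, was the exception in kind. It was at 0.916, 1.69 and 7.34 CPM in WT and at 0.0734, 0.166 and 0.381 CPM in S1PR4-/- cells (lowest, median and highest), a log2 fold change of -3.77 (SE 0.63, adjusted p = 0.0160; -3.06 with sex as a factor, adjusted p = 0.210). Its 2 highest libraries, WT replicates 4 and 5, were also the highest for Jchain, the joining chain of secreted antibody, at 15.4 and 10.5 CPM. Of the 31-base words of Mzb1, 55.1% also occur in the annotated gene SPATA24, so the split of reads between the 2 is uncertain. The plasma cell genes Jchain, Derl3 and Mzb1 were lower at an unadjusted p under 0.05, whereas Irf4, which activated T cells also make, was at a log2 fold change of 0.61 (adjusted p = 0.393). Whether B lineage RNA in the WT libraries bears on the other called genes was not tested beyond the fits with marker scores as covariates, in which all 24 genes away from S1pr4 kept their sign. With the B cell score 4 of those 24 kept an adjusted p under 0.05, and with the plasma cell score, chosen after seeing the data, 2 did.

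Among the other S1P receptors, S1pr1 was the only abundant one, at 1274, 1299 and 1452 CPM in WT and 1109, 1154 and 1273 CPM in S1PR4-/- cells. The lowest WT library stood just above the highest S1PR4-/- library, with a log2 fold change of -0.20 that did not pass over all genes (SE 0.05, adjusted p = 0.145). With sex as a factor the log2 fold change of S1pr1 was -0.15 (adjusted p = 0.701). In TFH cells S1pr1 was called, at -0.51 (adjusted p = 0.00575). The effects in non-TFH and TFH cells were not shown to differ (difference 0.31, adjusted p = 0.238, edgeR interaction term without a block). In non-GC B cells it was at 0.17 (adjusted p = 0.981) and in GC B cells at -0.44 (adjusted p = 0.985). S1pr2, which couples to G12/13, was at 13.8 to 21.4 CPM in WT and 18.1 to 23.4 CPM in S1PR4-/- cells (log2 0.24, SE 0.11, adjusted p = 0.444). S1pr3 and S1pr5 were under 1 CPM in every library and were not tested. None of the 7 tested genes of S1P synthesis, breakdown and export had an unadjusted p under 0.05. Of 26 tested G proteins and regulators of G protein signalling, 3 were higher and 4 lower at that threshold (1 and 2 with sex as a factor), among them Rgs1, which dampens Gi signalling from chemoattractant receptors, at 0.70 (SE 0.18, adjusted p = 0.136).

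The gene lists are described by counts at an unadjusted p under 0.05, beside 5.07% higher and 6.19% lower over all genes, and by their median log2 fold change, which was 0.00 over all genes in either fit. With sex as a factor the counts over all genes are 2.6% higher and 3.77% lower. The lists were chosen with earlier results of these data known, so the counts are a description and no test. Some genes are in more than 1 list, so the lists are not separate observations. Of 30 NF-kB subunits, inhibitors and activating kinases, 26 had a positive value, 9 were higher and 0 lower at that threshold, and the median was 0.10. Besides Nfkbid, Nfkbiz and Relb they were Nfkb2 (0.50, adjusted p = 0.0815), Nfkbia (0.26, adjusted p = 0.145), Nfkb1 (0.29, adjusted p = 0.170), Bcl3 (0.85, adjusted p = 0.339), Tnfaip3 and Bcl10. Of 27 NF-kB response genes 15 were higher and 1, Ltb, lower, with a median of 0.38. With sex as a factor the 2 lists had medians of 0.07 and 0.28, with 8 and 11 members higher and 0 lower.

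Of 25 genes of the interferon gamma response and MHC class I, 13 were higher and 0 lower, with a median of 0.36, and 6 were higher with sex as a factor. Among them Cd274, which encodes PD-L1, was at 0.54 (adjusted p = 0.105), Gbp5, a guanylate-binding protein, at 0.57 (adjusted p = 0.2503), and Socs1 at 0.69 (adjusted p = 0.265). The 30 interferon-stimulated genes, which answer type I interferon above all, had 2 higher members and a median of 0.19. Of 24 JAK, STAT and SOCS genes, 7 were higher and 1 lower (4 and 0 with sex as a factor), with Cish the 1 that passed over all genes.

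Of 28 immediate early genes, which respond within minutes to T cell receptor signals, 9 were higher and 2 lower, with a median of 0.24 (0.27 with sex as a factor). Egr1 was at 0.32 (adjusted p = 0.218), Zfp36 at 0.36 (adjusted p = 0.116), and Dusp6 at 0.34 (adjusted p = 0.193). Of 25 activation markers and checkpoint receptors, 9 were higher and 1, Cd40lg, lower, with a median of 0.35, but with sex as a factor 2 were higher and the median was 0.09. Cd69 was at 112.8, 147.5 and 158.8 CPM in WT and at 158.5, 200.8 and 251.3 CPM in S1PR4-/- cells, a log2 fold change of 0.52 that did not pass over all genes (SE 0.11, adjusted p = 0.0791; 0.63 with sex as a factor, adjusted p = 0.103).

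Counts of regulatory T cell genes also fell when sex was in the model. Of 16 tested, 6 were higher and 0 lower, with a median of 0.29, and 0 were higher with sex as a factor, at a median of 0.10. Foxp3, their defining transcription factor, was at 76.4, 150.8 and 174 CPM in WT and at 146.9, 207.1 and 252.4 CPM in S1PR4-/- cells, with overlapping groups and a log2 fold change of 0.46 (SE 0.18, adjusted p = 0.340). For 30 proliferation genes the median was 0.33, or 0.04 with sex as a factor, and 1 member, Mcm2, had an unadjusted p under 0.05. None of the 17 Th1 genes and 5 of the 13 Th17 genes were higher at that threshold, and 0 and 2 with sex as a factor.

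Cholesterol synthesis genes, by contrast, held their counts with sex in the model. Of 24, 9 were higher and 0 lower in either fit, with medians of 0.14 and 0.21. Fdps, a farnesyl pyrophosphate synthase, was at 56.4, 61.1 and 66.0 CPM in WT and 68.2, 72.5 and 90.9 CPM in S1PR4-/- cells, without overlap, a log2 fold change of 0.31 (SE 0.07, adjusted p = 0.0876). Sqle, squalene epoxidase, was at 0.58 (adjusted p = 0.1003). MYC targets had 9 higher and 0 lower members of 25, with a median of 0.18, and 3 higher with sex as a factor. Of 13 heat shock genes 4 were higher, led by Hsp90ab1 at 0.51 (adjusted p = 0.103), which did not overlap.

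In the lists of homing and the naive state and of T cell receptor signalling, more members were lower than higher at an unadjusted p under 0.05. Of the 28 homing, egress and naive state genes, 7 were lower and 4 higher (6 and 1 with sex as a factor). Lef1, a transcription factor of naive T cells, was at -0.26 (adjusted p = 0.178), Klf2, which drives S1pr1, at -0.26 (adjusted p = 0.207), and Il7r at -0.35 (adjusted p = 0.338). Of 33 T cell receptor signalling genes, 7 were lower, among them Cd3d, Cd28 and Rasgrp1, and 2 higher, Ptpn6 and Csk, which both restrain the receptor. With sex as a factor 2 were lower and 1 higher. Of the 12 CD4 T cell markers, some of which are also in that list, 4 were lower and 0 higher (2 and 0 with sex as a factor). The ribosomal protein genes, 80 tested, had 1 higher and 1 lower member and a median of 0.04.

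Some further lists had few members past an unadjusted p of 0.05. Of 22 glycolysis genes 2 were higher and 2 lower (0 and 2 with sex as a factor), of 31 genes of the PI3K, AKT and mTOR pathway 2 were higher and 4 lower (1 and 3), and of 75 respiratory chain genes 0 were higher and 1 lower. For 20 genes of the unfolded protein and integrated stress responses the counts were 4 higher and 2 lower (3 and 1 with sex as a factor). Of 25 TNF family ligands and receptors 7 were higher and 4 lower, with a median of 0.20 (0.11 with sex as a factor, 2 higher and 2 lower). Replication-dependent histone genes, whose transcripts mostly lack poly(A) tails, had 6 higher and 2 lower members of 25 tested (3 and 0 with sex as a factor).

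**Figure D3:**
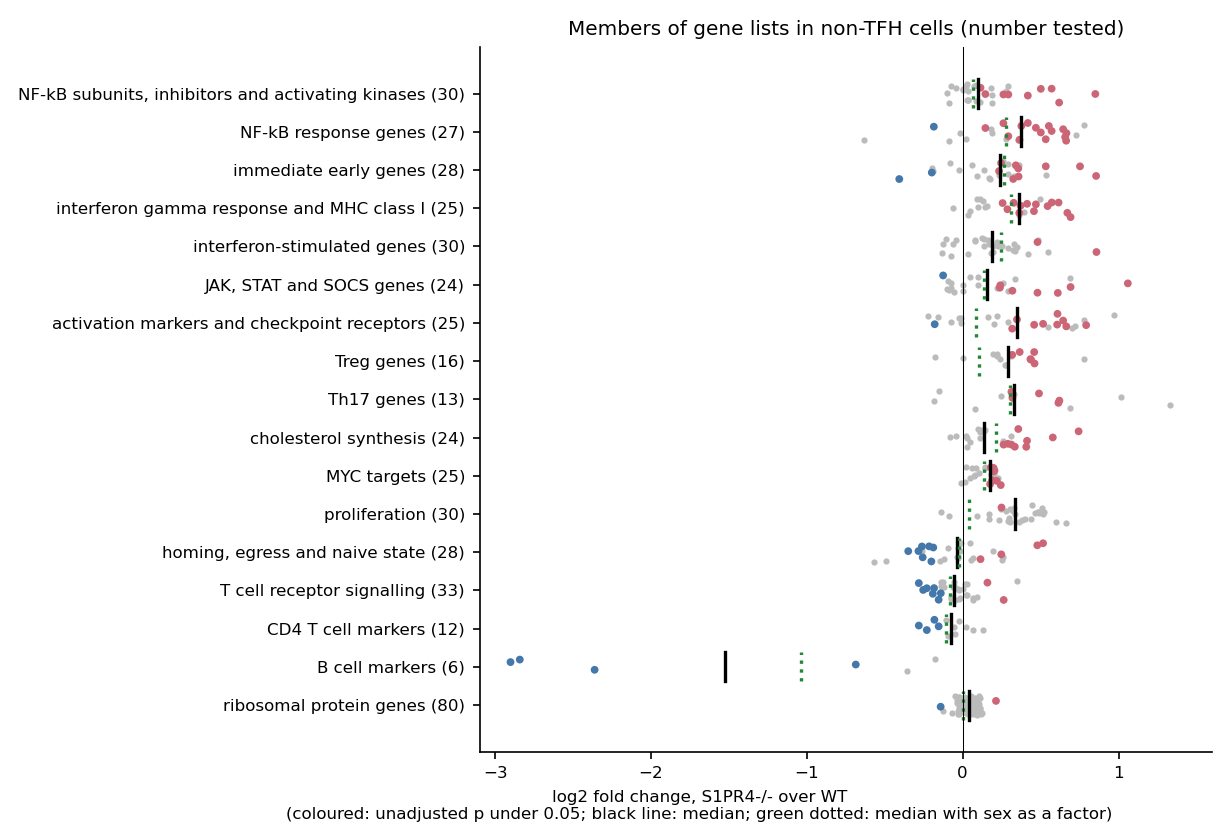
Log2 fold changes (S1PR4-/- over WT) of the tested members of 17 gene lists in non-TFH cells, with 1 point per gene. Red and blue points are higher and lower at an unadjusted p under 0.05, black lines are list medians, and green dotted lines are medians with sex as a factor; the 2 medians lie apart for activation markers, regulatory T cell genes and proliferation and close together for immediate early genes.

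Across the whole transcriptome, genotype took up 14.3% of the variance of log2 CPM, against a mean of 9.09% when genotype was permuted over the samples (exact permutation test, p = 0.0108). After sex was regressed out, with genotypes permuted within sex, the share was 8.67% (exact permutation test, p = 0.200), a setting chosen after seeing the data. The first principal component held 22.9% of the variance and separated the genotypes by 25.6 units (two-sided exact permutation test, p = 0.0303, adjusted p = 0.152 over 5 components), and within sex the difference was 12.1 (exact permutation test, p = 0.248). Components 2 to 5 had exact p-values from 0.0887 to 0.805.

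The TFH libraries had the same sexes as the non-TFH libraries of the same number, in 12 of 12 cases, but the labels do not say whether they came from the same mice. Of the 22 genes called away from S1pr4, Tdg pseudogenes aside, 20 had the same sign in TFH cells, 11 of them with an unadjusted p under 0.05, a threshold that 19.2% of all genes met in TFH cells, where 49.4% of genes had a positive value and 1.41% an adjusted p under 0.05. Pde4b (-0.47, adjusted p = 0.0303), Sesn1 (-0.50, adjusted p = 0.0274), Acss1 (-0.55, adjusted p = 0.0491) and Mzb1 (-4.35, adjusted p = 0.0231) were called there too. In non-GC B cells 2 of 21 genes had the same sign, and in GC B cells 9 of 21, with 1 in each at an unadjusted p under 0.05 and the same sign. Over all genes, 4.55% in non-GC B and 4.13% in GC B cells met that threshold, and 48.2% and 51.7% had a positive value.

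The exceptions in TFH cells were Relb and Nfkbiz. In the fit without a replicate block they were also the only genes of 14401 (0.0139%) for which the genotype effect in non-TFH cells differed from that in TFH cells at an adjusted p under 0.05. Relb was at 0.42 in non-TFH and -0.20 in TFH cells, a difference of 0.62 (SE 0.10, adjusted p = 0.0174, edgeR interaction term), and Nfkbiz was at 0.57 and -0.44, a difference of 1.01 (SE 0.18, adjusted p = 0.0453). An unadjusted p under 0.05 was reached by 1325 genes (9.2%). The count of 2 fell to 0 without WT replicate 1 or 4 or S1PR4-/- replicate 1, 3 or 6 of the non-TFH libraries, or without WT replicate 2 or S1PR4-/- replicate 4, 5 or 6 of the TFH libraries. It rose to 6 without WT replicate 6 of either population or TFH S1PR4-/- replicate 2, and DESeq2 gave 76. A block on the replicate number gave 10, and a block on the mouse presumed from that number gave 41. In the edgeR fit without a block, Irf1, Cd69, Nfkb2 and Zc3h12a, an endonuclease that degrades cytokine mRNAs, stood just outside the threshold. Their differences were 0.64, 0.72, 0.66 and 0.94 (adjusted p = 0.0758 for each). Cish had a difference of 0.97 (adjusted p = 0.470), so its effects of 1.06 in non-TFH and 0.09 in TFH cells were not shown to differ in that fit.

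**Figure D4:**
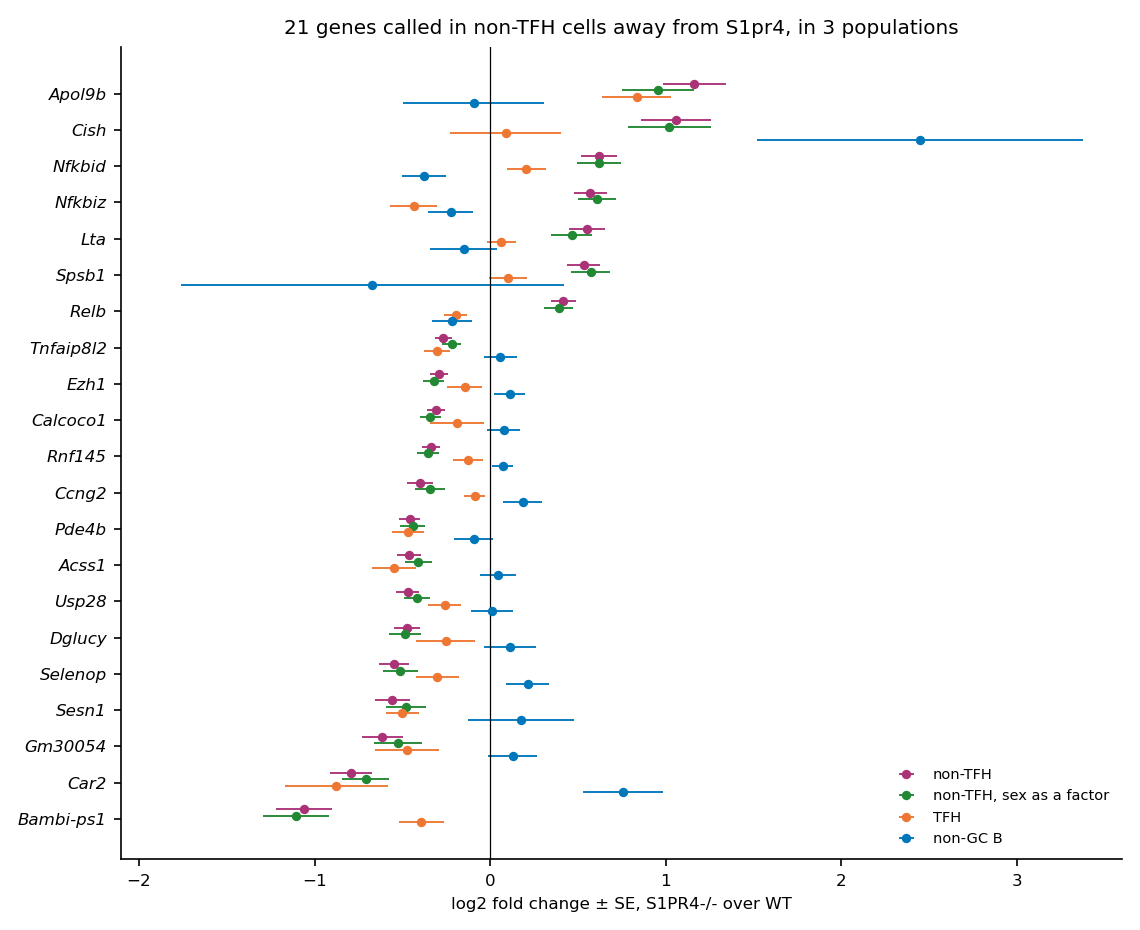
Log2 fold change ± SE (S1PR4-/- over WT) of the called genes away from S1pr4, without the Tdg pseudogenes and Mzb1, in non-TFH cells, in non-TFH cells with sex as a factor, in TFH cells and in non-GC B cells. The green and purple points lie close together, the TFH points of Relb and Nfkbiz lie on the other side of 0, and most non-GC B points do not follow the non-TFH points.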

How the data were processed

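RNA-seq was done on sorted cells with a stranded total RNA kit after oligo-dT capture. The authors used, per the study's methods and the submitters' processing notes, Cutadapt 2.10 for trimming, STAR 2.5.3 for alignment (mm10), Picard for duplicate marking and RSEM 1.3.0 for quantification. For pairwise differential expression the study's methods name DESeq2. The deposited table holds expected counts for 55450 genes, not normalised, of which 8.83% of values are not whole. Its symbols matched GENCODE M21, which gave positions.

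The expected counts were rounded. The 12 non-TFH libraries (29487657 to 40118294 counts) were fitted with edgeR 4.0.16 (R 4.3.3): filterByExpr, TMM scaling, glmQLFit and glmQLFTest with genotype only, and Benjamini-Hochberg adjustment over 13197 genes. The filter needs counts in at least 6 libraries, which leaves out Y-linked genes. A fold change over 1.5 with an adjusted p under 0.05 was called changed. The same fit was run on TFH (6 against 6), GC B (6 against 6) and non-GC B cells (5 WT against 4), and an interaction term on the 24 T cell libraries. Unless another model is named, adjusted p-values are from edgeR. Libraries with over 100 Ddx3y counts were called male. Nothing in the labels gives a batch or says which libraries share a mouse.

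Alternatives were DESeq2 1.42.0, limma 3.58.1 with voom, other scalings and filters, joint fits, covariates and leaving out each library. The fits with sex, with female libraries, with column order and with a plasma cell score were chosen after seeing the data. The script was tested on simulated data. Named genes were the S1P receptors, genes passing both thresholds, the 15 higher and 15 lower genes with the smallest p away from S1pr4 and at 1 CPM or more, up to 4 members per list, interaction calls and called neighbours. Single values of some list members are not reported here. The members and lists were chosen with earlier results of these data known.

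Motif positions count from 0 at the annotated start. Shared 31-base words were counted in GENCODE M21 transcripts. The replicate numbers did not pair WT with S1PR4-/- libraries (correlation of deviations over 0.1 in 3 of 6 numbers).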

Additional observations from a re-analysis of the deposited data

Results flagged for a closer look

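In 7 gene and genotype combinations, 1 library stood apart from the other 5 by Dixon's criterion, which chance alone meets in about 1 in 20 groups. Spsb1 was at 68.43 CPM in WT replicate 6, and Gm30054 at 26.19 CPM in WT replicate 4. Among the neighbours and copies, WT replicate 2 was highest for Gm32687 at 24.72 CPM and for Gm3055 at 13.73 CPM, and WT replicate 5 was the only WT library with Tdg-ps, at 0.02868 CPM. In S1PR4-/- cells, Tdg was highest in replicate 1 at 32.74 CPM, and Gm32687 was seen in replicate 2 alone at 0.2209 CPM.

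The genotype effect differed between non-TFH and TFH cells for Relb, by 0.62 on the log2 scale, and for Nfkbiz, by 1.01, by the edgeR interaction term without a replicate block.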

How the results depend on the processing

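The 31 genes with an adjusted p under 0.05 became 253 with DESeq2, 69 with all T cell libraries in 1 fit, 59 with a myeloid score and 63 with the mitochondrial share as covariate, and 13 with Xist, 10 with a B cell score, 9 with a plasma cell score and 9 with sex in the model, or 6 in female libraries. The 15 also past 1.5-fold became 56 with DESeq2, 33 with the myeloid score, 9 with Xist, 9 with the B cell score, 9 with the plasma cell score, 7 with sex and 6 in female libraries. Leaving out 1 library gave 18 (without S1PR4-/- replicate 6) to 51 (without WT replicate 6) and 11 to 27 (without WT replicate 6). All 24 genes away from S1pr4 kept their sign in each of these fits. The replicate numbers do not pair the genotypes by the correlation check, and a block on them gave 49 genes. Same-numbered non-TFH and TFH libraries correlated over 0.1 in 8 of 12 pairs and best with their own number in 10 of 12, a hint from the data that they share mice. For the interaction a block on the number gave 10 and a block on the presumed mouse 41, and DESeq2 gave 76, against 2. Leaving out 1 library gave 0 to 6 (without WT replicate 6 of either population or TFH S1PR4-/- replicate 2).

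With genes scaled to unit variance the genotypes differed by 6.33 on component 1 (exact p = 0.868) and 66.1 on component 2 (exact p = 0.00649), and the genotype share was 12.8% (exact p = 0.0736). Within sex component 1 differed by 12.1 and the share was 8.67%. Component 4 differed by 15.1 (exact p = 0.0455) without neighbours, X and Y genes. Leaving out 1 library gave 17.2 (exact p = 0.199, without WT replicate 4) to 32.7 for component 1, which also lost its p under 0.05 without S1PR4-/- replicates 1, 2 or 3, 0.348 to 14.9 for component 2, 2.06 to 20.5 for component 3, 2.97 to 20.0 for component 4, 0.463 to 13.7 for component 5 and 13.9% to 16.7% for the share. Signs turned for Il21 (-0.0143) and Ms4a1 (0.42) with the B cell score, Jchain (0.54) with the plasma cell score, and Bcl2a1b (-0.0677) and Irf4 (-0.16) in female libraries. The cause of these shifts was not tested. The female comparison held 5 WT and 2 S1PR4-/- libraries.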
